A study of Homo sapiens with 8 samples.

Results

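The lysosome and autophagy genes described here are 39 genes, named in a list by what their products are known to do, among the 36337 gene names of an Agilent array of 60-base probes. They encode the MiT/TFE transcription factors, proteins of the lysosomal membrane, subunits of the proton pump, acid hydrolases and the core autophagy machinery. RNA came from 4 groups of HCT-116 cells, an established human colorectal carcinoma line, with 2 arrays per group. WT cells were untreated parental cells. WT+NU6102 cells were the same parental cells kept for 24 h in 20 µM NU6102, a purine inhibitor of the cell cycle kinases CDK1 and CDK2. CDK2 KO cells were HCT-116 cells with the CDK2 gene deleted and grew without the drug. R50 cells came from colonies of HCT-116 cells that grew out under NU6102 and were kept in 50 µM of the drug. Doses and times of exposure to the drug therefore differed between WT+NU6102 and R50. The sources used here do not say whether the CDK2 KO line is 1 clone, nor whether the 2 arrays of a group came from separate cultures, so p-values measure the spread between arrays, which may be technical.

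Lysosomes break down material delivered by endocytosis and autophagy. The V-ATPase pumps protons into them, acid hydrolases made in the secretory pathway digest proteins, glycans and lipids there, and membrane proteins hold the compartment together and export the products. In autophagy a membrane sheet started by the ULK and Beclin 1 complexes is decorated with ATG8 proteins, closes around cytoplasm and fuses with a lysosome. The transcription factors TFEB, TFE3 and MITF bind E-boxes in many of these genes, and the kinase mTORC1 holds them in the cytoplasm of well-fed cells by phosphorylation.

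The E-box is written here as CACGTG, and a longer form of the element is written as TCACGTGA. Both read the same on both strands, and each match of the longer motif holds one of the shorter. They were searched in the RefSeq promoter table of GRCh38.p14, which gives 250 bases before and 50 after a gene's start. CACGTG was found in 8 of the 30 members with an entry, or 26.7%, beside 8.77% of all 27305 genes in the table. TCACGTGA was found in 5 of these 30 members, or 16.7%, beside 1.18% of all genes. Counted by promoter, 7.26% of all 35116 promoters of this length held CACGTG and 0.98% held TCACGTGA. The members with the longer motif were LAMP1, MCOLN1, CTSA, GAA and ATP6V0D1. CTSD, CTSF and NEU1 held only the shorter one. The 9 members without an entry were LAMP2, HEXA, CTSS, UVRAG, ASAH1, ATP6V1A, PSAP, ATP6V1H and CTSB. A match is a string of letters and no measured binding site.

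The 100 bases just before the start are printed for 6 of these genes, because the group holds members that rose with NU6102 (MCOLN1, LAMP1 and ATP6V0D1), a member that fell (CTSD) and members that did not pass the test in that comparison (GAA and CTSA). Each runs 5′ to 3′ on the gene's own strand, and capitals mark CACGTG. The MCOLN1 window lies at chr19:7522524-7522623 on the plus strand, LAMP1 at chr13:113297139-113297238 on the plus strand, GAA at chr17:80101481-80101580 on the plus strand, CTSA at chr20:45891235-45891334 on the plus strand, ATP6V0D1 at chr16:67481158-67481257 on the minus strand and CTSD at chr11:1763928-1764027 on the minus strand, all on GRCh38.p14.
MCOLN1: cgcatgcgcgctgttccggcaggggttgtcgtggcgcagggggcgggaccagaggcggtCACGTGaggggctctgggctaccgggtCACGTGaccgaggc
LAMP1: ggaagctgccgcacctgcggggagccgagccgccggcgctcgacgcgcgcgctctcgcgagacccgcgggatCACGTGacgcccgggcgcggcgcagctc
GAA: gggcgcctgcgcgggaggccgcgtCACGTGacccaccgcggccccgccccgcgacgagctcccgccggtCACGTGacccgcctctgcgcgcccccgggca
CTSA: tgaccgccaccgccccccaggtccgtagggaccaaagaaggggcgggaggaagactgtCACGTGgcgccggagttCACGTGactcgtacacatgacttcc
ATP6V0D1: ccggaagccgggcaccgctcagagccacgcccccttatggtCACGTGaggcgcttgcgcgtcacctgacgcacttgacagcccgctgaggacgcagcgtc
CTSD: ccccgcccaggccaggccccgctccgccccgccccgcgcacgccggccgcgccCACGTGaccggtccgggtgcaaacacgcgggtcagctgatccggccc
MCOLN1, GAA and CTSA held 2 copies each in these windows. In MCOLN1 both were part of TCACGTGA, 42 and 15 bases before the start. LAMP1 held 6 copies of CACGTG in its whole promoter, from 192 bases before the start to the start itself.

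All values below are normalized log2 signals, the log2 of the scanner's processed signal less the 75th percentile of the same array. They rank arrays for a probe and do not rank probes against each other. Of the 39 members, 38 were tested. CTSS, the protease cathepsin S, was not well above background on both arrays of any group and had signals between -7.40 and -6.85. Of the 57 probes for members 54 were tested, and 53 of these had a signal well above background on all 8 arrays. A gene with several probes was represented by its brightest. Duplicate arrays correlated across tested probes, which are not independent replicates, with r between 0.994 and 0.996. WT and WT+NU6102 shared slide 2, and CDK2 KO and R50 shared slide 1. The drug comparison in WT cells and the comparison of R50 with CDK2 KO thus lie within a slide. For the other 3 comparisons slide and group cannot be told apart. CDK2 itself was at -0.76 on both WT arrays and at -1.56 and -1.51 on the CDK2 KO arrays. Of 9 colon epithelial markers, 6 exceeded background clearly on every array, and CEACAM5 and VIL1 did so on none. Among markers of other cells COL1A1, CD14 and PTPRC did so on every array, and 4 of the 6 fibroblast markers on none. PTPRC did so by its brightest probe only, and its other probes were too dim to be tested. In RNA from a whole culture, fewer cells of a kind and less RNA per cell cannot be told apart.

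With NU6102 members were called in both directions. MCOLN1, GLA, NEU1, NPC1 and all 3 V-ATPase subunits rose, while cathepsins H, B and D and the ATG8 protein gene GABARAPL1 fell. Of the 38 tested members 14 (36.8%) rose and 10 (26.3%) fell at an adjusted p under 0.05 in limma, with Benjamini-Hochberg adjustment over all tested probes. Of all 19509 tested genes, 25.2% rose and 21.9% fell in this comparison. A log2 fold change of 1 or more in either direction, the fold limit used here, was reached besides by MCOLN1 and CTSH, 5.26% of members, beside 6.67% of all genes. The members' median log2 fold change was 0.12 (-0.002 with quantile normalization and -0.009 with the median of a gene's probes), beside 0.04 for all genes.

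In CDK2 KO against WT, 5 members (13.2%) were higher and 8 (21.1%) were lower, beside 17.5% and 15.1% of all genes. ULK2 alone passed the fold limit, as did 4.85% of all genes. The members' median was 0.04 and that of all genes 0.03. Without WT replicate 1, or without CDK2 KO replicate 2, the count of 13 called members dropped to 8.

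In R50 against WT, 9 members (23.7%) were higher, beside 10.9% of all genes. The 9 were MITF, GAA, ASAH1, PSAP, CTSD, NPC2, CTSH, NPC1 and NEU1. The NPC1 call was lost in all 8 fits that left out 1 array. Of the 38 members 0 were lower, beside 13.6% of all genes. At an unadjusted p under 0.05 limma gave 4 lower members. With normexp background correction 2 members were called lower, and with a trended prior variance 4. Only MITF passed the fold limit, as did 2.73% of all genes. Without WT replicate 2 the 9 called members dropped to 5. The methods' general t-test, with a Benjamini-Hochberg adjustment added here, called 0 of the 38, and 16 at an unadjusted p under 0.05.

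Within slide 1, R50 against CDK2 KO gave 12 higher members (31.6%) and 5 lower ones (13.2%), beside 15.6% and 21.2% of all genes. CTSD rose and ULK2 fell past the fold limit, which 5.26% of all genes passed. Without CDK2 KO replicate 1 the 17 called members dropped to 11. In R50 against WT+NU6102, 11 members (28.9%) were higher and 13 (34.2%) lower, beside 23.8% and 29.6% of all genes. MITF, CTSH and GLA passed the fold limit there, as did 11.1% of all genes. R50 against WT, R50 against CDK2 KO and R50 against WT+NU6102 share the R50 arrays, and 3 of the comparisons share the WT arrays, so their calls are not independent of each other.

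Across the 4 groups together, 16 members (42.1%) differed in limma's F-test at an adjusted p under 0.001, beside 23.5% of all genes. They dropped to between 2 and 4 when any 1 of the 8 arrays was left out. In at least 1 comparison 27 members were called. The 11 called in none were ATG5, CTSA, CTSF, CTSZ, GABARAPL2, HEXA, LAMP2, SQSTM1, TFE3, TPP1 and WIPI1, each judged by its brightest probe. Nearly all members' probes were well above background, and the part of this in their share of calls was not tested.

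**Figure D1:**
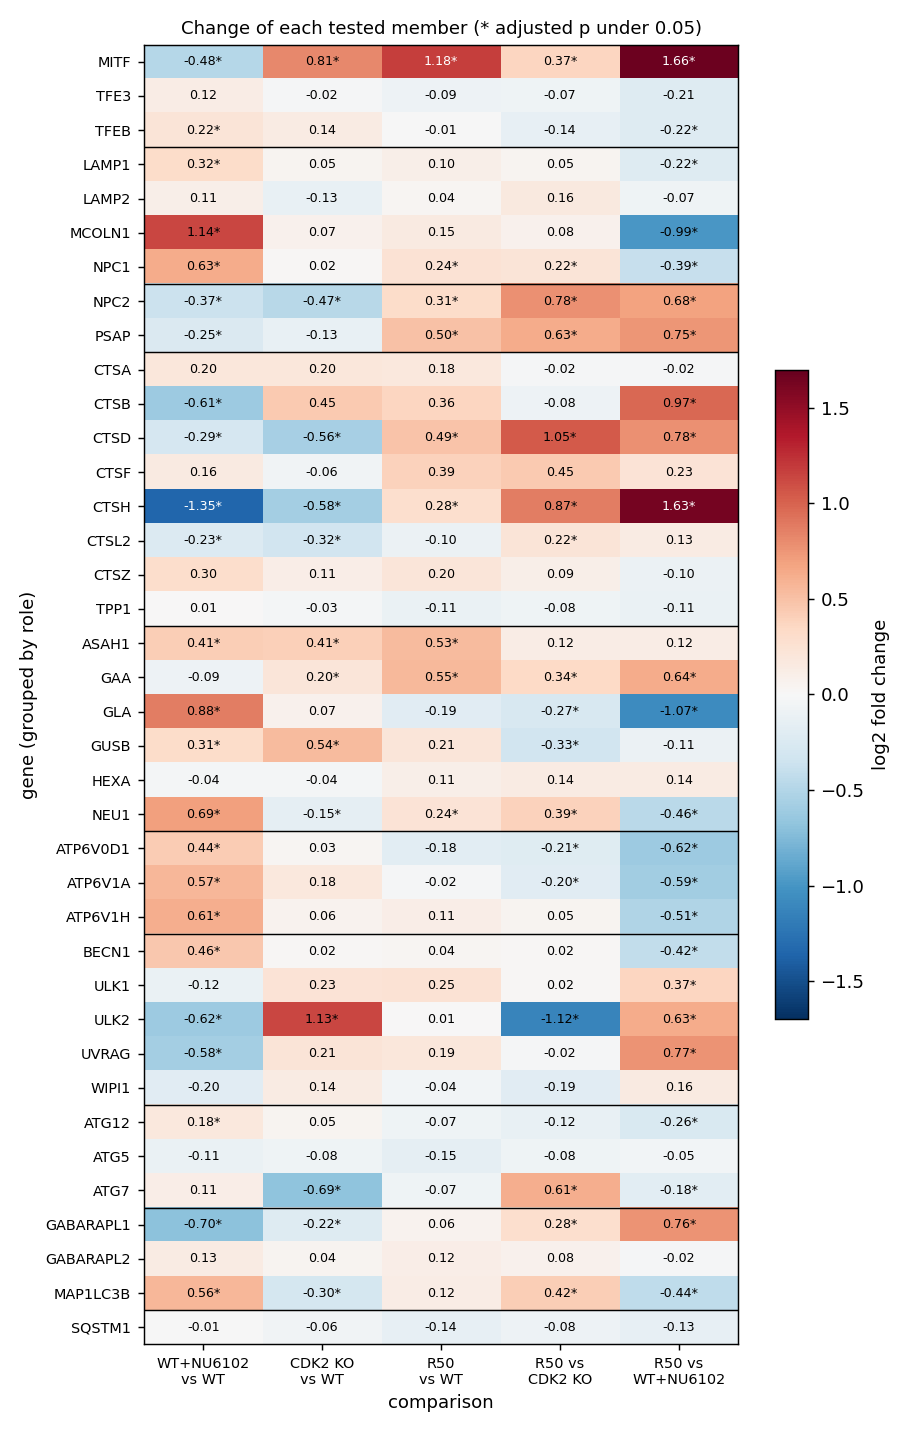
Log2 fold change of the brightest probe of each of the 38 tested members (rows, grouped by role) in 5 comparisons (columns), with an asterisk at an adjusted p under 0.05 in limma. The R50 against WT column holds 9 asterisks, all on positive values, and MCOLN1, GLA and the V-ATPase subunits are positive with NU6102 and negative in R50 against WT+NU6102.

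Among the transcription factors MITF changed most. MITF, a MiT/TFE factor best known from pigment cells, was measured by a probe at chr3:70014715-70014774 (positions of probes are on hg19). Its signal was -1.54 and -1.57 on the WT arrays, -2.01 and -2.07 on the WT+NU6102 arrays, -0.72 and -0.77 on the CDK2 KO arrays and -0.34 and -0.41 on the R50 arrays. The 4 groups did not overlap, with R50 highest and WT+NU6102 lowest. MITF was 2.26-fold higher in R50 than in WT (log2 fold change 1.18, SE 0.053, limma adjusted p = 0.000327) and 1.76-fold higher in CDK2 KO (log2 0.81, adjusted p = 0.000395). With NU6102 it fell by 0.48 on the log2 scale (adjusted p = 0.00119). Within slide 1 it was higher in R50 than in CDK2 KO by 0.37 (adjusted p = 0.00464). A second MITF probe passed the test in the same direction in each of these comparisons, at 0.89 for R50 against WT. The remaining, dimmer one did not pass in any of them.

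TFEB, the factor best known for driving lysosomal genes, moved little by its brightest probe. This probe, at chr6:41658820-41658879, read 2.55 and 2.57 in WT, 2.75 and 2.81 in WT+NU6102, 2.70 and 2.69 in CDK2 KO and 2.49 and 2.62 in R50. WT+NU6102 lay above WT without overlap, and the log2 fold change of 0.22 passed the test (adjusted p = 0.0284). The call was lost in 6 of the 8 fits that left out 1 array and with quantile normalization, and the second TFEB probe fell by 0.42. TFE3 read 2.90 and 2.88 in WT, 3.10 and 2.92 in WT+NU6102, 2.97 and 2.77 in CDK2 KO and 2.85 and 2.74 in R50. This brightest TFE3 probe passed the test in none of the 5 comparisons, with log2 fold changes between -0.21 and 0.12. The second TFE3 probe fell by 0.46 with NU6102 (adjusted p = 0.015) and was higher in R50 than in WT+NU6102 by 0.57 (adjusted p = 0.00559).

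Of the 4 lysosomal membrane genes among the members 3 rose with NU6102, where 25.2% of all genes rose and 21.9% fell. Of 31 other tested genes for the lysosomal membrane or sorting, 7 rose and 9 fell. MCOLN1, which encodes the lysosomal calcium channel mucolipin 1, was measured at chr19:7593764-7593823. It read -1.09 and -0.98 in WT, 0.08 and 0.12 in WT+NU6102, -0.99 and -0.95 in CDK2 KO and -0.83 and -0.95 in R50. The WT+NU6102 arrays stood far above all others, 2.2-fold above WT (log2 1.14, SE 0.067, adjusted p = 0.000219). R50 was below WT+NU6102 by 0.99 on the log2 scale and did not pass the test against WT or CDK2 KO. In all 8 fits that left out 1 array, the rise with NU6102 stayed called, at 1.08 to 1.19.

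NPC1, the cholesterol exporter of the lysosomal membrane, rose by 0.63 with NU6102 (adjusted p = 0.000541). LAMP1, a major glycoprotein of that membrane, read 5.83 and 5.85 in WT, 6.15 and 6.16 in WT+NU6102, 5.92 and 5.86 in CDK2 KO and 5.93 and 5.94 in R50. The WT+NU6102 arrays were again the highest, and the log2 fold change against WT was 0.32 (SE 0.046, adjusted p = 0.00313). LAMP2, its relative, was at 0.11 with NU6102 by its brightest probe and did not pass (adjusted p = 0.177).

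All 3 V-ATPase subunits among the members rose with NU6102 and were lower in R50 than in WT+NU6102. ATP6V1H, a subunit of the cytosolic V1 sector, rose by 0.61 (adjusted p = 0.000927). ATP6V1A, the catalytic V1 subunit, rose by 0.57 (adjusted p = 0.000746). ATP6V0D1, which belongs to the membrane sector V0, rose by 0.44 (adjusted p = 0.00135). R50 lay below WT+NU6102, where the 3 fell by 0.51, 0.59 and 0.62 in that order. None of them passed the test in CDK2 KO against WT or R50 against WT, where their log2 fold changes lay between -0.18 and 0.18.

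Of the 8 protease genes tested, 4 fell with NU6102 by their brightest probe, and the other brightest probes did not pass the test. Of all genes, 21.9% fell and 25.2% rose in this comparison. CTSH, an aminopeptidase of the papain family measured at chr15:79214209-79214268, read 3.47 and 3.48 in WT, 2.13 on both WT+NU6102 arrays, 2.87 and 2.92 in CDK2 KO and 3.78 and 3.74 in R50. The 4 groups did not overlap. CTSH was 2.55-fold lower with NU6102 (log2 fold change -1.35, SE 0.046, adjusted p = 8.81e-05) and 1.5-fold lower in CDK2 KO (adjusted p = 0.000694). In R50 it was 1.82-fold above CDK2 KO within slide 1 (adjusted p = 0.000187).

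CTSD, the aspartic protease cathepsin D, was measured at chr11:1774425-1774484. Its signal was 1.53 and 1.65 in WT, 1.29 and 1.31 in WT+NU6102, 1.05 and 1.01 in CDK2 KO and 2.10 and 2.05 in R50. R50 was highest and CDK2 KO lowest, with no overlap between groups. R50 was 2.07-fold above CDK2 KO (log2 1.05, SE 0.059, adjusted p = 0.000226) and above WT by 0.49 (adjusted p = 0.00512). The fall of CTSD with NU6102 was 0.29 (adjusted p = 0.0113), and CDK2 KO lay below WT by 0.56 (adjusted p = 0.00186).

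CTSB, a cysteine protease, fell by 0.61 with NU6102 (adjusted p = 0.02). Its WT arrays differed by more than most, at 3.41 and 3.79, and 5 of the 8 fits that left out 1 array kept the call. CTSL2, now named CTSV and encoding cathepsin V, fell by 0.23 with NU6102 (adjusted p = 0.0307). Its CDK2 KO signal was below WT by 0.32 (adjusted p = 0.015). Both CTSL2 calls were lost without the filter on dim probes and with the methods' t-test. The call with NU6102 was also lost with slide 2 fitted alone. By their brightest probes the tripeptidyl peptidase TPP1 and the cathepsins CTSA, CTSF and CTSZ did not pass in any comparison. The second CTSZ probe passed in 4 of the 5, among them a rise of 0.32 with NU6102 (adjusted p = 0.00554), where the brightest was at 0.30 (adjusted p = 0.126).

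Among the 6 genes for glycosidases and the acid ceramidase, GLA and NEU1 rose with NU6102 by 0.88 and 0.69. GLA, which encodes alpha-galactosidase A, was measured at chrX:100652878-100652937. It read 3.73 and 3.72 in WT, 4.59 and 4.60 in WT+NU6102, 3.85 and 3.74 in CDK2 KO and 3.52 and 3.54 in R50. The WT+NU6102 arrays were highest, 1.84-fold above WT (SE of the log2 fold change 0.054, adjusted p = 0.000249), and the R50 arrays lowest, 2.10-fold below WT+NU6102 (adjusted p = 7.1e-05).

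NEU1, the lysosomal sialidase, had an adjusted p of 0.00024 for its rise with NU6102. GUSB, a glucuronidase, rose by 0.31 with NU6102 and was higher in CDK2 KO by 0.54 (adjusted p = 0.00211). ASAH1, the acid ceramidase, was called higher than WT in WT+NU6102, CDK2 KO and R50, at 0.41, 0.41 and 0.53. GAA, the glucosidase that digests lysosomal glycogen, was higher in R50 than in WT by 0.55 (adjusted p = 0.00221) and than in CDK2 KO by 0.34 (adjusted p = 0.00466). HEXA, a hexosaminidase subunit, passed in no comparison. The NEU1 rise in R50 against WT, 0.24 (adjusted p = 0.016), was kept in 4 of the 8 fits that left out 1 array and lost without the filter on dim probes. R50 thus differed from WT in GAA, ASAH1 and, less stably, NEU1, and from WT+NU6102 in GLA, NEU1 and GAA.

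For the lysosomal lipid-handling genes NPC2 and PSAP, R50 was highest and WT next, as for CTSD. NPC2, which hands cholesterol to NPC1, read 5.54 and 5.50 in WT, 5.13 and 5.18 in WT+NU6102, 5.05 on both CDK2 KO arrays and 5.81 and 5.85 in R50. R50 lay above WT, and WT above the other two groups. NPC2 fell by 0.37 with NU6102 and was higher in R50 than in CDK2 KO by 0.78 (adjusted p = 0.000282). PSAP, the precursor of the saposins that present lipids to hydrolases, fell by 0.25 with NU6102 and was higher in R50 than in WT by 0.50 (adjusted p = 0.00267) and than in CDK2 KO by 0.63 (adjusted p = 0.000564).

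**Figure D2:**
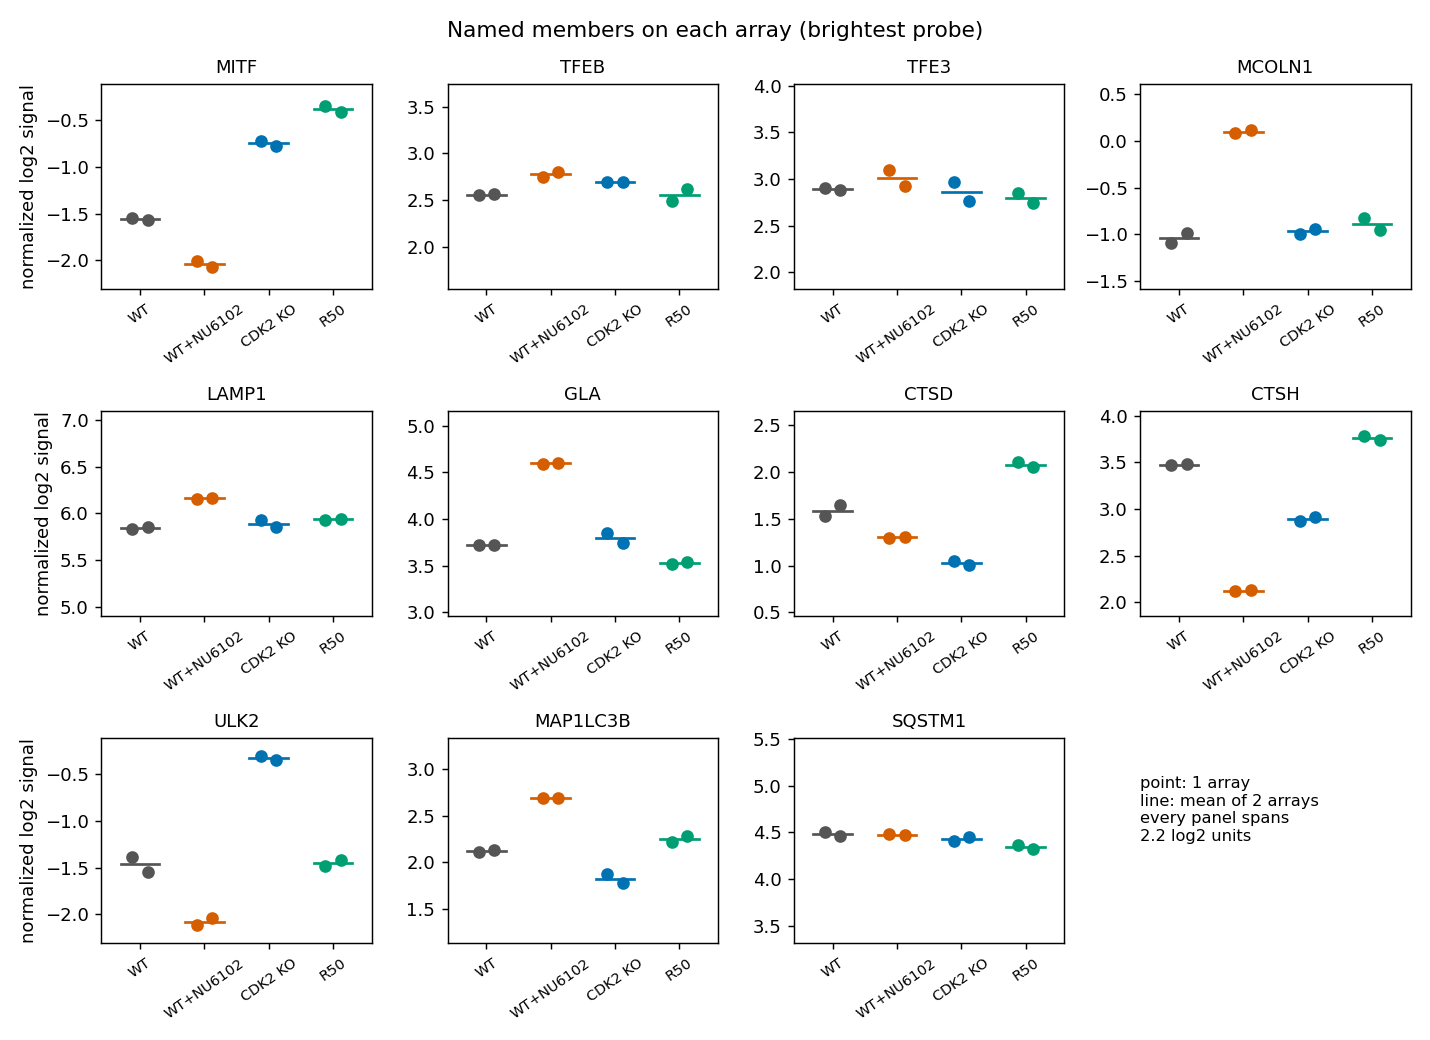
Normalized log2 signal (y axis) of 11 members on each of the 8 arrays (points), by group (x axis), with the group mean of 2 arrays as a line; each panel spans 2.2 log2 units. The WT+NU6102 arrays stand above the rest for MCOLN1, LAMP1, GLA and MAP1LC3B and below for CTSH, MITF and ULK2, the R50 arrays stand highest for MITF, CTSD and CTSH, and TFE3 and SQSTM1 are nearly flat.

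Genes for autophagy initiation did not move as a group. ULK2, a kinase that starts autophagosome formation, was measured at chr17:19677582-19677641. It read -1.38 and -1.54 in WT, -2.11 and -2.04 in WT+NU6102, -0.31 and -0.35 in CDK2 KO and -1.48 and -1.42 in R50. The CDK2 KO arrays were highest, 2.19-fold above WT (log2 1.13, SE 0.071, adjusted p = 0.000349), the WT+NU6102 arrays lowest, and R50 overlapped WT. Within slide 1, R50 was 2.18-fold below CDK2 KO (adjusted p = 0.000307). A second ULK2 probe gave 0.65 for CDK2 KO against WT (adjusted p = 0.0489) and, for R50 against CDK2 KO, -0.39, which did not pass the test (adjusted p = 0.166).

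BECN1, which encodes Beclin 1 of the autophagy lipid kinase complex, rose by 0.46 with NU6102 (adjusted p = 0.00153). UVRAG, a partner of Beclin 1, fell by 0.58 (adjusted p = 0.0107), a call kept in 6 of the 8 fits that left out 1 array. ULK1, the relative of ULK2, was called only in R50 against WT+NU6102, where it was higher by 0.37 (adjusted p = 0.00706). WIPI1, a phosphoinositide-binding protein of the growing membrane, was called in none.

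The conjugation genes and the ATG8 family were also divided. MAP1LC3B encodes LC3B, the ATG8 protein used most often to mark autophagosomes. It read 2.12 and 2.13 in WT, 2.69 on both WT+NU6102 arrays, 1.87 and 1.78 in CDK2 KO and 2.22 and 2.28 in R50. The WT+NU6102 arrays were the highest and the CDK2 KO arrays the lowest. The log2 fold change was 0.56 for NU6102 (SE 0.054, adjusted p = 0.000772) and -0.30 for CDK2 KO (adjusted p = 0.0108). The CDK2 KO call was lost without the filter on dim probes and with the methods' t-test. A second MAP1LC3B probe gave 0.34 for NU6102 (adjusted p = 0.00248) and -0.07 for CDK2 KO, which did not pass (adjusted p = 0.28). GABARAPL1, of the same family, fell by 0.70 with NU6102 (adjusted p = 0.000383), and GABARAPL2 passed in no comparison. MAP1LC3B and GABARAPL1 thus moved in opposite directions with the drug, and both were higher in R50 than in CDK2 KO, by 0.42 and 0.28.

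ATG7, the enzyme that activates ATG8 proteins and ATG12, was lower in CDK2 KO than in WT by its brightest probe, at -0.69 (adjusted p = 0.000871). ATG12 rose by 0.18 with NU6102 (adjusted p = 0.0423), a call kept in 2 of the 8 fits that left out 1 array. ATG5, its conjugation partner, passed in none by its brightest probe. The second ATG5 probe fell by 0.65 with NU6102 (adjusted p = 0.000637). It was higher in R50 than in WT+NU6102 by 0.64 (adjusted p = 0.000401). SQSTM1, which encodes the cargo receptor p62, read 4.50 and 4.46 in WT, 4.48 and 4.47 in WT+NU6102, 4.40 and 4.45 in CDK2 KO and 4.36 and 4.32 in R50. Its log2 fold changes lay between -0.14 and -0.01, and it passed the test in no comparison.

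Probes for the same gene did not always move together. Of the 39 members 14 had more than 1 tested probe, which gave 70 pairs of a gene and a comparison. In 6 of these pairs, probes of the gene were called in opposite directions. They belonged to TFEB, LAMP2 and ATG7. For TFEB the brightest probe was higher with NU6102 by 0.22 and the other lower by 0.42 (adjusted p = 0.00357). In R50 against WT+NU6102 the brightest TFEB probe was at -0.22 (adjusted p = 0.022) and the other at 0.62 (adjusted p = 0.000559). For ATG7 the brightest probe was lower in CDK2 KO by 0.69 and the other higher by 0.31 (adjusted p = 0.0134). The 2 ATG7 probes were also opposed in R50 against CDK2 KO, at 0.61 and -0.26.

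The 3 LAMP2 probes are listed under transcripts NM_001122606, NM_013995 and NM_002294, which differ in their last exon. The NM_002294 probe, at chrX:119560073-119560132, fell by 0.62 with NU6102 (adjusted p = 0.00202) and was higher in CDK2 KO than in WT by 0.63 (adjusted p = 0.00357). The NM_001122606 probe, the brightest, was at 0.11 and -0.13 in these comparisons and the NM_013995 probe at -0.01 and -0.14, none past the test. LAMP2 probes were called in opposite directions only in R50 against CDK2 KO. There the NM_002294 probe was at -0.60 (adjusted p = 0.00351) and the NM_013995 probe at 0.20 (adjusted p = 0.0471). Statements on the direction of TFEB, LAMP2 and ATG7 therefore hold for a probe and not for the gene.

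**Figure D3:**
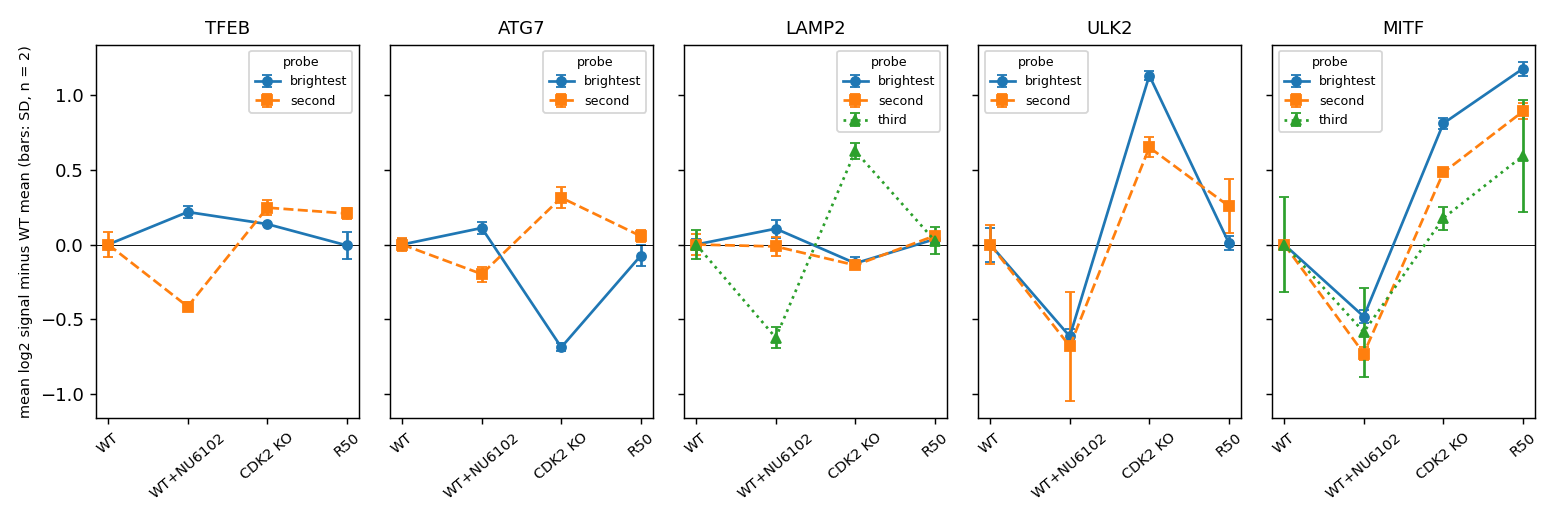
Mean log2 signal less the WT mean (y axis) for each tested probe of 5 members in the 4 groups (x axis), with bars of 1 SD over 2 arrays and probes ordered by mean signal. The probes of ULK2 and MITF lie on the same side of WT in WT+NU6102 and CDK2 KO, though by unequal amounts, and those of TFEB, ATG7 and LAMP2 part in WT+NU6102 or CDK2 KO.

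The wider pathway gave a setting for the members. A list of 176 other lysosome and autophagy genes was drawn up from textbook function, of which 167 were tested. With NU6102, 65 rose and 43 fell, where 25.2% and 21.9% of all genes did. In CDK2 KO against WT 31 were higher and 30 lower, where 17.5% and 15.1% of all genes were. In R50 against WT the counts were 30 and 13, beside 10.9% and 13.6% of all genes. Against CDK2 KO, R50 had 42 higher and 27 lower, beside 15.6% and 21.2% of all genes. Against WT+NU6102 it had 54 and 63, beside 23.8% and 29.6%. Leaving out 1 array of the groups compared lowered the 43 called genes of R50 against WT to between 14 and 23, and the 61 of CDK2 KO against WT to between 27 and 38. Without CDK2 KO replicate 1 or 2, the 69 of R50 against CDK2 KO became 42 and 45.

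Most V-ATPase genes were called with NU6102. Of 20 tested subunit and accessory genes, the 3 members included, 14 rose and 3 fell, with a median log2 fold change of 0.43, where 25.2% of all genes rose and 21.9% fell with a median of 0.04. The difference from all genes was not tested. The risers included ATP6V0B and ATP6V0C of the membrane ring, at 1.03 and 0.57, and ATP6V1D, ATP6V1E1 and ATP6V1F of the V1 sector, at 0.82, 0.59 and 0.55. ATP6V1G2, ATP6V0A1 and ATP6V1E2 fell, by 1.01, 0.64 and 0.24. With quantile normalization 12 rose and 3 fell at a median of 0.25, and in fits without 1 array between 12 and 14 rose. Against WT, R50 had 2 of the 20 higher and no other called, where 10.9% of all genes were higher and 13.6% lower. Against WT+NU6102, 4 were higher and 13 lower, where 23.8% and 29.6% of all genes were. With quantile normalization the 4 and 13 became 6 and 9.

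Lysosomal hydrolases and their activators made up 51 tested genes with the members. With NU6102 17 rose and 17 fell, where 25.2% and 21.9% of all genes did. Against WT, R50 had 20 higher and 2 lower, with a median of 0.18, where 10.9% of all genes were higher and 13.6% lower. In the same comparison normexp correction and quantile normalization gave 24 and 22 higher genes. Without WT replicate 1, WT replicate 2 or R50 replicate 1, 11 were higher, and without R50 replicate 2, 13. Within slide 1, R50 against CDK2 KO gave 23 higher and 6 lower genes, where 15.6% and 21.2% of all genes were called, and 16 to 21 higher ones in fits without 1 array. Genes outside the member list that were higher in both comparisons included the proteases CTSK (0.95 and 0.58) and CTSO (0.38 and 0.96), the iduronidase IDUA (0.79 and 0.63) and the arylsulfatase ARSA (0.27 and 0.75). In CDK2 KO against WT 8 hydrolase genes were higher and 13 lower, where 17.5% and 15.1% of all genes were.

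**Figure D4:**
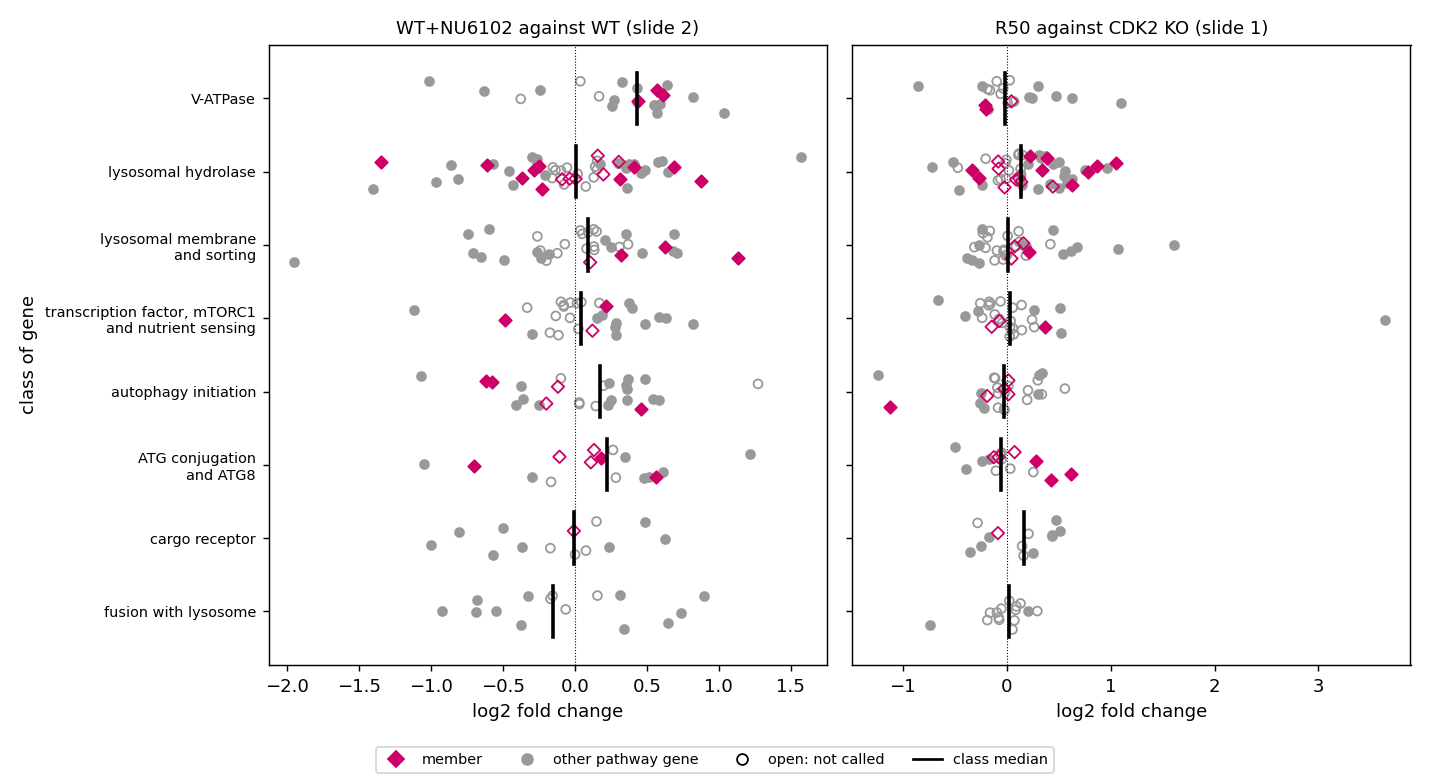
Log2 fold change (x axis) of each tested lysosome or autophagy gene by class (y axis) in WT+NU6102 against WT and in R50 against CDK2 KO, the 2 comparisons within a slide. Diamonds are members, circles other pathway genes, filled symbols passed an adjusted p under 0.05, and bars mark class medians, which is 0.43 for the V-ATPase genes with NU6102.

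The 29 tested genes for MiT/TFE factors, mTORC1 and nutrient sensing gave 12 rises and 3 falls with NU6102, and 8 and 5 with quantile normalization. Of all genes, 25.2% rose and 21.9% fell in this comparison, and no class was tested against them. The 35 genes for the lysosomal membrane and sorting gave 10 and 9, and the 16 for conjugation and ATG8 proteins 7 and 3. The 15 genes for fusion with the lysosome gave 5 and 6, the 13 cargo receptors 3 and 5, and the 26 initiation genes 11 and 7.

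The largest changes outside the member list that met the naming rule were found in single genes. That rule asks for a call and a signal well above background on all 4 arrays compared. Among mTORC1 and nutrient-sensing genes, log2 fold changes that did not meet it reached -3.01 in CDK2 KO against WT. In R50 against CDK2 KO they reached 3.64. SMPD1, the acid sphingomyelinase, rose most with NU6102, from -2.38 and -2.39 in WT to -0.83 and -0.79 (log2 fold change 1.57, adjusted p = 0.00011). ATG4D, a protease that trims ATG8 proteins, rose by 1.22. LAMP3, a LAMP family member with restricted expression, fell from 1.49 and 1.30 in WT to -0.58 and -0.53 with NU6102, and to -1.04 and -1.20 in CDK2 KO. It was the largest fall of both comparisons under the naming rule (log2 -1.95 and -2.52), and within slide 1 R50 stood above CDK2 KO by 1.61. The protease gene CTSO and the Rag GTPase gene RRAGB fell with NU6102, by 1.40 and 1.12.

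CD68, a lysosomal glycoprotein best known from macrophages, was lower in CDK2 KO by 1.39 and in R50 by 1.58, and was the one other pathway gene past the fold limit in R50 against WT. ATG2B, a lipid transfer protein of the autophagosome, was higher in CDK2 KO than in WT by 1.47 and lower in R50 than in CDK2 KO by 1.24, the order seen for ULK2. ATP6V0A4, a V-ATPase subunit of specialised epithelia, was higher in R50 than in CDK2 KO by 1.1. Between R50 and WT+NU6102, CTSO, the autophagy receptor gene OPTN and the tether gene EPG5 were higher by 1.78, 1.51 and 1.32, and SMPD1, the fusion gene VPS18 and ATP6V0B were lower by 1.79, 1.26 and 1.0 on the log2 scale.

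The promoter motif was set beside these changes as a description. Of the 8 members with CACGTG, 4 rose and 1 fell with NU6102, and of the 22 with an entry but no match 7 rose and 6 fell. Among other pathway genes, 18 of 34 with the motif rose and 3 fell, and of 99 without it 35 rose and 30 fell. Of all genes, whatever their promoter, 25.2% rose and 21.9% fell. Set against WT+NU6102, R50 had 2 of the 8 members with the motif higher and 4 lower, and of the 22, 6 and 7. Of the 34 other pathway genes with the motif, 3 were higher there and 19 lower, and of the 99, 40 and 35. There 23.8% of all genes were higher and 29.6% lower. Calls among all array genes with CACGTG were not counted, so these splits are not shown to be particular to lysosome and autophagy genes. Both comparisons share the WT+NU6102 arrays, and neither says whether a factor was bound.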

How the data were processed

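Cy3-labelled RNA of 8 HCT-116 samples was hybridized to 1-colour Agilent arrays. The authors deposited the intensity of each spot after background subtraction, as written by the scanner software (Agilent Feature Extraction 11.5.1.1) with no scaling between arrays. They also deposited processed log2 values of 28719 probes from GeneSpring GX, used here as an alternative.

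R 4.3.3 with the package data.table (1.17.8) read the scanner files. Controls and outlier-marked spots were dropped, and 0 spots were saturated. Each signal was taken to log2, the array's 75th percentile subtracted, and spots averaged per probe. Testing kept 28677 of 50599 probes, those with a usable spot on every array and a signal well above background on both duplicates of some group. Between 32376 and 36206 spots passed that background limit on an array. Limma 3.58.1 fitted the 4 groups together, and the script was tested on simulated data. Tests were two-sided, with Benjamini-Hochberg adjustment over all 28677 probes. Pairwise calls used an adjusted p under 0.05, and the F-test the methods' threshold of 0.001. The brightest probe represented each of 19509 genes.

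The members and lists were chosen with earlier results of these data known. Values per array are given for members past the fold limit in any comparison and for TFEB, TFE3, LAMP1, SQSTM1 and MAP1LC3B, with NPC2 added after its values were seen. Of other pathway genes, the 3 largest rises and falls per comparison were named among called genes past the fold limit with a signal well above background on all 4 arrays compared. Other V-ATPase and hydrolase genes were named as examples after their values were seen. Alternatives were normexp (offset 50), quantile scaling, dropping or tightening the limit on dim probes, the processed values, a trended prior variance, the methods' t-test and ANOVA, a replicate block, each slide alone, the median of a gene's probes and leaving out each array. The methods give the t-test for comparisons in general and state no adjustment for it. For the arrays they name the ANOVA with a Student Newman Keuls post hoc test, which was not run here. Probe positions are the hg19 coordinates of the scanner files, and whether a probe lies in coding sequence or a UTR was not analysed here. Plots used matplotlib 3.10.9, numpy 2.4.6 and Python 3.11.15.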

Additional observations from a re-analysis of the deposited data

How the results depend on the processing

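All settings named here were chosen with earlier results of these data known. Without a filter on dim probes, called members became 8 in CDK2 KO against WT, 5 in R50 against WT, 11 in R50 against CDK2 KO and 3 in the F-test, and other pathway genes 30, 12 and 40 in the same 3 comparisons. A trended prior variance raised R50 against WT to 16 members and 69 other genes. The methods' t-test gave, after Benjamini-Hochberg adjustment, 14 members and 50 other pathway genes for WT+NU6102 against WT, 6 and 10 for CDK2 KO against WT, 7 and 13 for R50 against CDK2 KO and 0 and 0 for R50 against WT. At their unadjusted threshold the last were 16 and 57, and 15 and 77 in limma. The methods' ANOVA gave 7 members. The cause of these shifts was not tested.

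Leaving out each array in turn gave 19 to 25 called members for WT+NU6102 against WT, 8 to 12 for CDK2 KO, 5 to 8 for R50, 11 to 16 for R50 against CDK2 KO, 21 to 24 for R50 against WT+NU6102 and 2 to 4 in the F-test. For other pathway genes the ranges were 83 to 107, 27 to 54, 14 to 35, 42 to 62 and 100 to 115. Over all tested probes, arrays with the same replicate number did not deviate together (r between -0.03 and 0.05). This cannot show whether equal numbers mark a shared culture or batch, because the noise of single arrays may hide it. With the number as a replicate block the F-test gave 5 members, and the pairwise counts 24, 12, 9, 16 and 25.

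Quantile normalization changed the split of higher to lower members to 11 and 14 for WT+NU6102 against WT, 8 and 7 for CDK2 KO, 13 and 3 for R50 against CDK2 KO and 15 and 9 for R50 against WT+NU6102, and normexp that of R50 against WT to 11 and 2. Directions turned with quantile normalization for TPP1 with NU6102 (-0.16) and TFEB in R50 against WT+NU6102 (0.012). With the median of a gene's probes they turned for TFEB with NU6102 (-0.10) and, in R50 against WT+NU6102, for TFEB (0.20), ATG5 (0.30) and ATG7 (0.035). With the authors' processed values all 190 pairs of a member and a comparison kept direction and call. The number of arrays limits every value.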

Other observations

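Where a member had several tested probes, the change with NU6102 was set by position, from the probe nearest the 3′ end to the one nearest the 5′ end. The strand was taken from the order of the coordinates in the scanner files, and the comparison was chosen after the values were seen. In 11 of the 14 members with several probes the 3′ probe had the lower log2 fold change with NU6102, and the median difference was -0.13. For all 5049 genes with several tested probes on the array, 53.5% were lower at the 3′ probe and the median difference was -0.03, and for 49 other pathway genes 51% and -0.003. The widest gaps were in LAMP2 (-0.62 at the 3′ probe and 0.11 at the 5′ probe), TFEB (-0.42 and 0.22), TFE3 (-0.46 and 0.12) and ATG5 (-0.65 and -0.11). In CDK2 KO against WT the 3′ probe was lower in 2 of the 14, beside 36.6% of all genes, and in R50 against CDK2 KO in 7, beside 50.8%. In R50 against WT the count was 2, beside 34.1%, and in R50 against WT+NU6102 it was 1, beside 37.1%, with a median difference of 0.31 in the members and 0.09 in all genes. These comparisons share arrays. The 5′ probe was the brighter one in 9 of the 14 members and in 1709 of the 5049 genes. The part of brightness in this pattern was not tested.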
